A study of Mus musculus with 5 samples.

Results

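Cycling macrophages are the kidney macrophages that carried transcripts of the proliferation genes Mki67 and Top2a. They were picked cell by cell from counts of unique molecular identifiers (UMIs, each a captured RNA molecule). A cell barcode was kept where mitochondrial genes gave no more than 30% of its UMIs and where 200 genes or more were seen. It counted as a macrophage with at least 10 UMIs of C1qa, C1qb, C1qc and Lyz2 together, at least 1 UMI of Csf1r and Adgre1 together, at most 9 UMIs of Ctsk and at most 1 UMI of Cd3e, Cd3d and Cd3g together. It counted as cycling with at least 2 UMIs of Mki67 and Top2a together. This gave 535 cycling cells among 3589 macrophages and 60043 kept cells of 72896 barcodes. Macrophages with no UMI of either gene (2646 cells) served as the non-cycling comparison, and the 408 macrophages with exactly 1 UMI entered neither class.

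Wild-Type male C57BL/6 mice of 8 to 10 weeks were given aristolochic acid I (AAI), a plant toxin taken up by the proximal tubule, at 3 mg/kg by repeated intraperitoneal injection. Kidneys were taken from a vehicle-treated control at week 0 (1 library), in the acute kidney injury (AKI) phase at week 2 (AKI 1 and AKI 2), and in the chronic kidney disease (CKD) phase at week 4 after a period without toxin (CKD 1 and CKD 2). Whole kidney was digested with collagenase and DNase and sequenced in droplets, without a sort for macrophages. The labels do not say whether the libraries of a phase came from separate mice, so p-values measure the spread between libraries, which may be technical.

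Macrophages of the kidney descend from embryonic cells that maintain themselves by dividing in place and from blood monocytes that enter after injury. A dividing cell licenses replication origins with the MCM helicase in G1, copies DNA in S phase from a raised supply of deoxynucleotides, and then builds a spindle and separates chromosomes in G2 and M. Mki67 encodes Ki-67, which coats mitotic chromosomes and is present outside quiescence, and Top2a encodes the topoisomerase that untangles replicated DNA.

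Between 64825786 and 105551199 UMIs per library lay in kept cells. The cycling macrophages held 173482 UMIs (control), 1670987 (AKI 1), 3098936 (AKI 2), 2396451 (CKD 1) and 2611151 (CKD 2). Barcodes over the mitochondrial limit or under the gene limit made up 38.7% of the control, against 11.1 to 12.7% of the other libraries. Between 19 and 132 kept barcodes were shared by a pair of libraries, and in the pair with most of them, control and CKD 2, 99 had over 20 times fewer UMIs in the control. No shared barcode was a member in both libraries, and 0, 2, 2, 3 and 6 members of the control, AKI 1, AKI 2, CKD 1 and CKD 2 carried such a barcode.

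The share of macrophages that were cycling was lowest in the control and highest in the CKD libraries. The control held 14 of 651 macrophages (2.15%, exact binomial 95% interval 1.18 to 3.58), and 4 of 571 (0.701%, 0.191 to 1.78) with marked doublets removed. AKI 1 held 87 of 727 (11.97%, 9.70 to 14.6) and AKI 2 held 151 of 1067 (14.2%, 12.1 to 16.4). CKD 1 held 168 of 737 (22.8%, 19.8 to 26.0) and CKD 2 held 115 of 407 (28.3%, 23.9 to 32.9). Both CKD libraries lay above both AKI libraries, with a mean difference of 12.5 percentage points and a standard deviation within phases of 2.94 points. The smallest 2-sided p that an exact permutation test of 2 libraries against 2 can give is 0.33, so no test of the shares could pass 0.05. The intervals cover counting error only. As a share of all kept cells the phases overlapped. Members were 0.153% (control), 0.777% (AKI 1), 1.39% (AKI 2), 0.870% (CKD 1) and 1.21% (CKD 2) of them. Macrophages were 7.10%, 6.49%, 9.83%, 3.82% and 4.28% of kept cells in the same order, lowest in the CKD libraries.

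**Figure D1:**
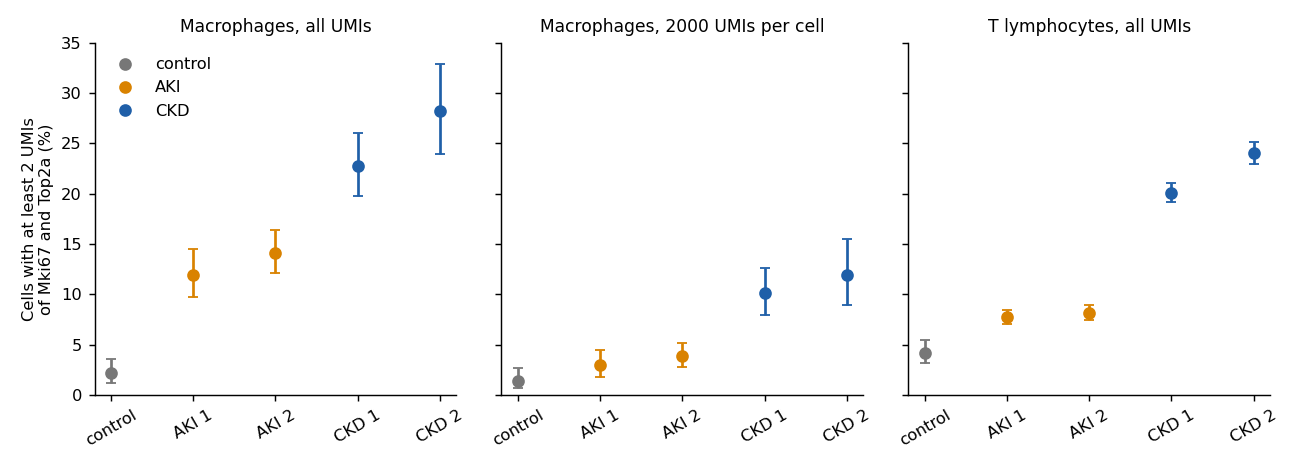
Share of cells (percent) with at least 2 UMIs of Mki67 and Top2a in each library. The panels show macrophages with all UMIs, macrophages thinned to 2000 UMIs per cell, and T lymphocytes with all UMIs. Points are shares and bars exact binomial 95% intervals. In all 3 panels both CKD libraries lie above both AKI libraries, and the control lies lowest.

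The share moved with depth, because a deeper cell has more chance of showing 2 UMIs. Non-cycling macrophages had a median of 4067 UMIs (control), 10228 (AKI 1), 10335 (AKI 2), 5768 (CKD 1) and 10571 (CKD 2). When every macrophage was thinned to 2000 UMIs, leaving out 12, 13, 29, 64 and 4 shallower cells, the share was 1.41% (control), 2.94% (AKI 1), 3.85% (AKI 2), 10.1% (CKD 1) and 11.9% (CKD 2). The difference between phases was then 7.61 points, with the CKD libraries still above the AKI libraries. With 1 UMI required after thinning, a limit chosen after the data were seen, it was 10.9 points.

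Other cell classes of the same libraries gave the background of these shares. T lymphocytes, defined by at least 2 CD3 UMIs, had 4.22% (control), 7.72% (AKI 1), 8.17% (AKI 2), 20.1% (CKD 1) and 24.0% (CKD 2) cycling cells. Their order over the libraries was that of the macrophages, so a higher share in CKD was measured in both classes. Proximal tubule cells stood at 0.845%, 0.847% and 0.697% in the control and AKI libraries and at 2.76% and 3.04% in CKD 1 and CKD 2, below the macrophages of the same library in each case. As counted, endothelial cells went the other way between phases, on few cycling cells. They stood at 0.501% (7 cells, control), 1.62% (5, AKI 1), 2.14% (6, AKI 2), 0.930% (4, CKD 1) and 0.435% (1, CKD 2). Thinned as the macrophages were, they stood at 0.421%, 1.09%, 0.797%, 0% and 0% in the same order. With 1 UMI required after thinning, they stood at 1.01%, 1.45%, 1.59%, 2.94% and 2.97%. Both CKD libraries then lay above both AKI libraries, so the direction in endothelial cells depended on the limit. Cells with 10 or more Ctsk UMIs and otherwise the same markers, left out by the rule, numbered 0, 1, 3, 14 and 6, of which 0, 1, 1, 5 and 1 were cycling.

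The members were spread over a wide range of Mki67 and Top2a counts. Exactly 2 UMIs, just inside the limit, were seen in 3 (control), 26 (AKI 1), 44 (AKI 2), 45 (CKD 1) and 21 (CKD 2) members. Just outside it, 13, 93, 133, 126 and 43 macrophages had 1 UMI. At least 10 UMIs were carried by 6, 21, 46, 62 and 59 members. Few cells lay at the limit on C1q and Lyz2, where 10 UMIs were found in 0, 1, 3, 5 and 0 members and 9 UMIs in 0, 0, 1, 2 and 0 otherwise matching cells. The limit on CD3 UMIs removed 171 cells that met the other terms on C1q, Csf1r and cycling, and that on Ctsk removed 11.

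The macrophages that met the cycling limit also held more UMIs, which the limit itself favours, since 2 UMIs of Mki67 and Top2a are found more readily in a deeper cell and the non-cycling class had 0. Their median was 9506.5 UMIs (control), 18130 (AKI 1), 19786 (AKI 2), 13360 (CKD 1) and 22502 (CKD 2), between 1.77 and 2.34 times that of non-cycling macrophages. Median genes per cell ran from 2530.5 to 3861 in cycling and from 1301.5 to 2398 in non-cycling cells. Marks of doublets were higher in members as well, and their part in these values was not tested. A score from simulated doublets marked 10 of 14 control members. It marked 11 of 87 and 16 of 151 in AKI 1 and AKI 2, and 69 of 168 and 9 of 115 in CKD 1 and CKD 2. A UMI of a T cell receptor or CD3 gene was found in 14.3% of members in the control and in 41.7 to 45.2% in the other libraries, against 3.21% and 31.2 to 41.5% of non-cycling macrophages.

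Markers of other cells were low in the members, and those of macrophages were present. Over the 9 T lymphocyte markers that the rule did not use, the summed level was 0.173 UMIs per 10000 in control members and 0.506 to 0.734 in those of the other libraries. In non-cycling macrophages it was 0.302 to 1.18, and in T lymphocytes themselves 24.5 to 38.8. The 7 macrophage markers outside the rule summed to 13.1 to 25.3 per 10000 in members and to 0.260 to 0.565 in T lymphocytes. The defining erythroid markers Hbb-bs and Hba-a1 and the NK marker Ncr1 were at 0 in all members. Summed dendritic cell markers ran from 0.190 to 1.13 per 10000 in members and from 0.259 to 1.28 in non-cycling macrophages. The 5 markers of tubule segments other than the proximal tubule reached 36.0 per 10000 in the 14 control members but 0.567 to 4.61 in the others. Without the marked doublets the mean share difference was 9.96 points, and without cells holding a T cell receptor UMI it was 12.6 points. With both left out it was 9.47 points.

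Genes of every stage of the cell cycle were higher in cycling than in non-cycling macrophages of the same library. Mki67 and Top2a chose the cells, and genes that accompany them follow from that choice, so these ratios are given as a description with no test. Of 6034 genes with at least 20 UMIs in the members of each AKI and CKD library, 221 (3.66%) were at least 1 log2 unit higher in the 4 libraries. Among the 103 cell cycle genes in that set, 93 were. The median log2 ratio was 4.79 over spindle, kinetochore and cytokinesis genes, 4.05 over mitotic exit genes, 2.86 over nucleotide synthesis genes, 2.26 over replication licensing genes and 0.09 over all genes.

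The spindle list separated the classes most. Its 31 genes summed to 21.2 (control), 13.3 (AKI 1), 16.9 (AKI 2), 21.0 (CKD 1) and 21.1 (CKD 2) UMIs per 10000 in members, against 0.524 to 1.32 in non-cycling cells. Besides Mki67 and Top2a, the largest ratios of any gene belonged to Knl1, a kinetochore protein outside the list, and to Nusap1 and Prc1, which bind spindle microtubules. Nusap1, a spindle protein, stood at 0.622, 0.829, 1.11 and 1.03 per 10000 in members of AKI 1, AKI 2, CKD 1 and CKD 2 and at 0.00464 to 0.0218 in non-cycling cells of those libraries. Licensing genes were less exclusive, at 12.2 to 19.6 per 10000 in members and 2.88 to 4.998 in the other macrophages. Pcna, the sliding clamp of DNA polymerase, was at 2.24, 1.98, 2.39 and 2.31 in members and at 1.29, 1.14, 1.22 and 0.909 in non-cycling cells.

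**Figure D2:**
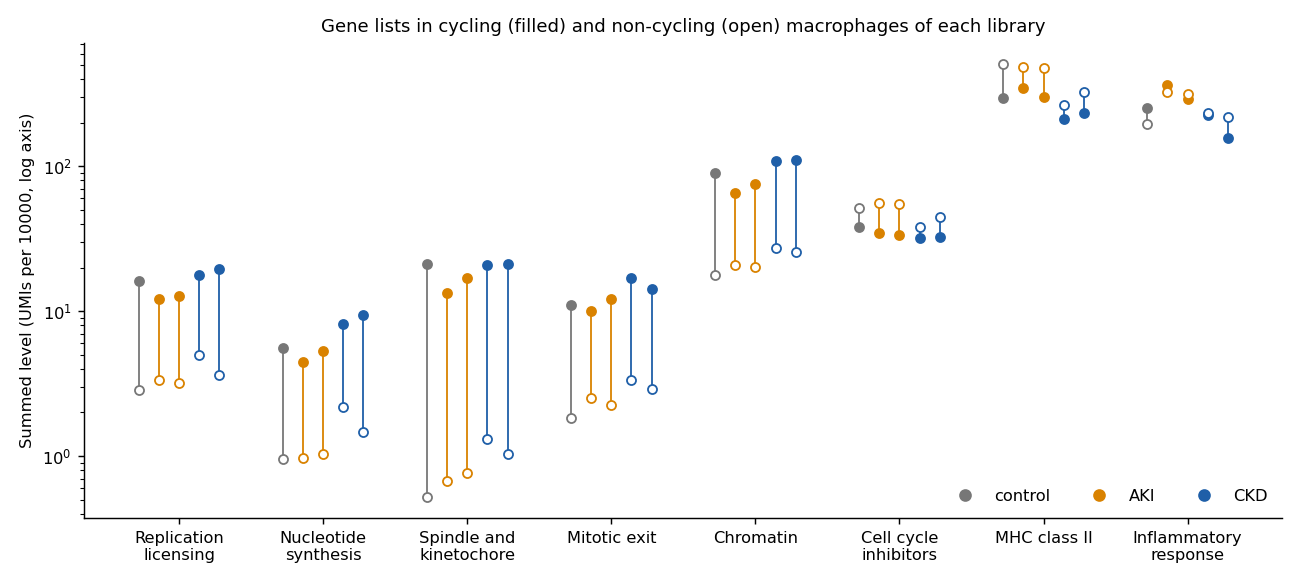
Summed level of 8 gene lists (UMIs per 10000, log axis) in cycling (filled points) and non-cycling (open points) macrophages, with a line joining the classes of each library and colours for control, AKI and CKD. Filled points lie above open points in all 5 libraries for the 5 cell cycle lists and below them for cell cycle inhibitors and MHC class II.

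Genes that were lower in cycling cells were few. Only Ccl8, which encodes a monocyte-attracting chemokine, was at least 1 log2 unit lower in the 4 libraries (1 gene, 0.0166%). Its level was 10.4, 5.61, 0.634 and 0.957 per 10000 in members and 23.5, 20.7, 2.78 and 3.66 in non-cycling cells. Bst1, Fcgr4, Rbpms and Wfdc17 followed. Fcgr4, an activating Fc receptor, was at 0.616, 0.726, 0.338 and 0.387 in members and at 1.38, 1.44, 0.861 and 1.08 in the others. The MHC class II list was lower in members of all 5 libraries, by 0.34 to 0.77 on the log2 scale of its sum.

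Promoters of the genes that mark these cells are shown because some of the lists that separated the classes carry different cell cycle elements. The sequences run from 250 bases before to 50 after the start of a RefSeq gene model on GRCm38.p6, 5′ to 3′ on the gene's strand. Capitals mark matches, on both strands and partly sharing bases, of the cell cycle homology element TTTGAA, the CCAAT box CCAAT and the E2F sites TTTGGCGC and TTTCCCGC. Mki67 (chr7:135716330-135716629, minus strand), Top2a (chr11:99024140-99024439, minus strand) and Ube2c (chr2:164769679-164769978, plus strand) stand for G2/M, and Mcm6 (chr1:128359656-128359955, minus strand) for replication licensing.
Mki67: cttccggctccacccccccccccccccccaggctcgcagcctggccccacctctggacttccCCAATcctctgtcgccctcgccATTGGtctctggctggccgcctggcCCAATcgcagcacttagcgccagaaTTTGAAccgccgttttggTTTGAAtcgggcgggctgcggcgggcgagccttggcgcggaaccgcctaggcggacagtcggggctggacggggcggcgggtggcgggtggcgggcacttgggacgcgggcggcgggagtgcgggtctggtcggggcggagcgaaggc
Top2a: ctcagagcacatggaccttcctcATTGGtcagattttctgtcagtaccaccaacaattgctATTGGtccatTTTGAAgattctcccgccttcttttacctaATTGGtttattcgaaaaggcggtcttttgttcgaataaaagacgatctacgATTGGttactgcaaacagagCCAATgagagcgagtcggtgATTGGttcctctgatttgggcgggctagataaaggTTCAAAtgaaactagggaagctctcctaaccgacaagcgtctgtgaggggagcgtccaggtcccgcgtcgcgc
Ube2c: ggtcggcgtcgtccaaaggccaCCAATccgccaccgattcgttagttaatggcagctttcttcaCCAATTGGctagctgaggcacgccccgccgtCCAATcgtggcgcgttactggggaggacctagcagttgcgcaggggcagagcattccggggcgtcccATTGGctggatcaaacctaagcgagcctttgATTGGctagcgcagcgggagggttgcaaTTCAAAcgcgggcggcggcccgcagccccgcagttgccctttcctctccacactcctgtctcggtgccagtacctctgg
Mcm6: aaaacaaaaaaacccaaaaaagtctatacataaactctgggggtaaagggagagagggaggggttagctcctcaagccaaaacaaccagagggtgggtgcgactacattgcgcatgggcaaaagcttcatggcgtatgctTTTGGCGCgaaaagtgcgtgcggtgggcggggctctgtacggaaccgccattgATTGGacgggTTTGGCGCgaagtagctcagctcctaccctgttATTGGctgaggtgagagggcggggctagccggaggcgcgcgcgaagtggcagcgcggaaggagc
The Mki67 promoter held 2 matches of TTTGAA and 3 of CCAAT, that of Top2a 2 and 6, and that of Ube2c 1 and 6. None of these held an E2F match, whereas Mcm6 held 2 E2F and 2 CCAAT matches.

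Over the lists, TTTGAA was found in 22 of 29 promoters of spindle genes (75.9%), in 6 of 11 of mitotic exit genes (54.5%) and in 4 of 24 of licensing genes (16.7%), against 18.1% of 27025 genes with a promoter. An E2F site was found in 9 of the 24 licensing genes (37.5%) and 0 of the 29 spindle genes, against 1.63% of all. Nucleotide synthesis genes, which also separated the classes, had TTTGAA in 0 and an E2F site in 0 of 7 promoters. CCAAT was found in 69.0% of spindle and 75.0% of licensing promoters, against 37.9% of all. A match is a run of letters and not a shown binding site.

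As counted, the balance of S and G2/M transcripts was near even in every library with over 20 members. More UMIs of 43 G2/M genes than of 36 S genes were found in 43.7% of members in AKI 1 (exact binomial 95% interval 33.1 to 54.7), 47.7% in AKI 2, 52.4% in CKD 1, 48.7% in CKD 2 and in 9 of the 14 control members. CKD exceeded AKI by a mean of 4.86 points, with a standard deviation within phases of 2.72 points. The difference was -1.20 points when 4 UMIs of Mki67 and Top2a were required, and -2.14 points without marked doublets and cells with a T cell receptor UMI, so its direction depended on the choice of cells. The level did too. In AKI 1, AKI 2, CKD 1 and CKD 2 it was 58.0, 60.7, 57.3 and 59.0% with 4 UMIs required. With the doublets and T cell receptor cells left out it was 37.2, 42.7, 34.5 and 41.1%. The lists differ in their number of genes, so this balance is no count of cells in each stage.

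Cell sums per library were then compared between CKD and AKI with edgeR. A lower sum can mean fewer cells with a transcript or less of it per cell, and these cannot be told apart in the sums. Of 9625 genes tested in cycling macrophages, 605 (6.29%) had an adjusted p under 0.05, with 204 (2.12%) higher and 401 (4.17%) lower in CKD. The libraries of the phases did not overlap for 52.7% of the genes, 32.5% with both CKD libraries higher and 20.2% with both lower. The median log2 change of all tested genes was -0.01. Without AKI 1 the count was 246, without AKI 2 it was 277, and without CKD 1 it was 1050. Leaving out members with a T cell receptor UMI gave 317.

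A minority of proliferation genes rose in the members from AKI to CKD. Of 119 cell cycle genes, 16 rose, 0 fell and 103 did not pass, and the median log2 change of the 119 was 0.45. In the non-cycling macrophages of the same libraries their median change was 0.58. A test of the difference between the classes, given further below, called 0 of the 119, so no rise was shown to be particular to the members. In simulated data that test recovered 19% of differences of 1 log2 unit, so the lack of calls does not show equal changes. Mki67 stood at 3.20 and 3.56 per 10000 in AKI 1 and AKI 2 and at 3.86 and 3.95 in CKD 1 and CKD 2, and Top2a at 1.83, 2.67, 3.32 and 3.59, but both were part of the rule and are given without a test. Control members had 6.86 and 4.78 per 10000 of them. At least 10 UMIs of both together were carried by 21 of 87 members in AKI 1, 46 of 151 in AKI 2, 62 of 168 in CKD 1 and 59 of 115 in CKD 2. Genes that accompany Mki67 and Top2a can follow the choice of members, and its part in the rises was not tested. Without AKI 1, 3 of the 119 genes passed, and without AKI 2, 9 did. With doublets removed, 8 passed. With at least 4 UMIs of Mki67 and Top2a required, 9 passed and the median was 0.26. Of the 16 rises, 3 passed in every alternative fit that tested them, those of Ccnd1, Stmn1 and Hist1h2ap.

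Cyclin D1 was the clearest of them. Ccnd1, which couples growth factor signals to G1 progression, was at 1.54 and 1.24 per 10000 in AKI 1 and AKI 2 and at 3.53 and 3.31 in CKD 1 and CKD 2. It rose by 1.21 (SE 0.16) on the log2 scale (adjusted p = 0.00348) and passed in each alternative fit run. Ccne1 and Ccne2, the E cyclins that start S phase and the only other cyclins that passed, rose by 1.23 (adjusted p = 0.0325) and 1.47 (adjusted p = 0.0313). Both were named after their values were seen, and neither call was stable. The adjusted p of Ccne1 and Ccne2 was 0.151 and 0.131 without AKI 1, 0.0931 and 0.103 without AKI 2, 0.310 and 0.285 with DESeq2, 0.0607 and 0.0788 with at least 4 UMIs of Mki67 and Top2a, and 0.156 and 0.0953 without members holding a T cell receptor UMI. Ccne1 was also lost without CKD 2 (0.0545) and Ccne2 with doublets removed (0.0538). Cdk1, the mitotic kinase, was at 0.586, 0.942, 1.12 and 0.915 per 10000 and did not pass (adjusted p = 0.484).

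Nucleotide supply showed the largest share of rises, at 5 of 8 genes. Tk1, which salvages thymidine, was at 0.533 and 0.665 per 10000 in the AKI libraries and at 1.04 and 1.55 in the CKD libraries, a rise of 1.01 (SE 0.22, adjusted p = 0.0246). Dut, which keeps uracil out of DNA, rose by 0.76 (SE 0.16, adjusted p = 0.0212), and Dtymk, a thymidylate kinase, by 0.69 (SE 0.17, adjusted p = 0.0444). The others were Rrm1 and Rrm2, the subunits of ribonucleotide reductase. Without AKI 1 none of the 5 passed, with adjusted p = 0.160 for Tk1, 0.0709 for Dut and 0.259 for Dtymk. In that fit 0 of 8 passed, and 1 of 8 without AKI 2.

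Replication licensing had 4 rises among 28 genes. Pclaf, a partner of the sliding clamp, was at 1.18 and 1.53 per 10000 in AKI and at 2.72 and 3.19 in CKD, and rose by 1.02 (SE 0.16, adjusted p = 0.00699). Mcm6, a helicase subunit, was at 0.706, 0.587, 1.03 and 1.42 and rose by 0.83 (SE 0.20, adjusted p = 0.0448). The remaining rises were Slbp, which binds histone mRNA, and Uhrf1, which maintains DNA methylation. Mcm3, Lig1 and Pcna did not pass (adjusted p = 0.586, 0.930 and 0.881). Without AKI 1 none of the 28 passed, Pclaf having an adjusted p of 0.0709 and Mcm6 one of 0.0898. Mcm6 was also lost without AKI 2 (0.231) and without CKD 2 (0.152).

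Mitotic genes moved least. Of 31 spindle genes only Birc5, which encodes survivin of the chromosomal passenger complex, rose. Its level was 1.64 and 1.96 per 10000 in AKI and 3.10 and 2.89 in CKD, a rise of 0.63 (SE 0.14, adjusted p = 0.0307), and its adjusted p was 0.247 without AKI 1 and 0.0878 without AKI 2. None of 12 mitotic exit genes passed, among them Ube2c, a ubiquitin enzyme of the anaphase-promoting complex, at 1.69, 2.13, 3.41 and 2.38 (adjusted p = 0.170). The chromatin list had 3 rises of 21, H2afz, Hist1h2ap and Stmn1. Stmn1, a tubulin-binding protein, rose from 4.23 and 5.34 to 10.2 and 10.1 per 10000, by 0.98 (SE 0.14, adjusted p = 0.0043), and was named after its values were seen. H2afz, a histone variant, rose by 0.53 (SE 0.13, adjusted p = 0.0455) and was lost without AKI 1 (0.322) and without AKI 2 (0.143). Reads of Hist1h2ap may be shared with other histone copies.

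Cell cycle inhibitors were mostly unresolved. Of 15 tested only Klf2, a quiescence factor, passed, at 9.24, 10.9, 5.27 and 7.55 per 10000. It fell by 0.75 (SE 0.18, adjusted p = 0.0404), but the adjusted p was 0.115 without AKI 1 and 0.198 without AKI 2. Cdkn1a, which encodes the inhibitor p21, was at 4.24 and 4.81 in AKI and at 7.39 and 6.13 in CKD (log2 change 0.48, SE 0.14, adjusted p = 0.0837).

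Targets of p53 rose in part, with 8 of 20 higher, 0 lower and a median log2 change of 0.92. Phlda3, a p53-induced inhibitor of Akt, was at 0.0598 and 0.145 per 10000 in AKI 1 and AKI 2 and at 1.55 and 1.08 in CKD 1 and CKD 2. The rise was 3.47 (SE 0.31, adjusted p = 0.000561). Bax, which opens the mitochondrial outer membrane in apoptosis, rose from 1.80 and 2.37 to 5.08 and 4.20, by 1.05 (SE 0.16, adjusted p = 0.00642). Mdm2, which degrades p53, rose from 1.02 and 1.12 to 3.08 and 1.96, by 1.13 (SE 0.21, adjusted p = 0.0129). In non-cycling macrophages the changes were 2.16 for Phlda3, 1.08 for Bax and 0.93 for Mdm2, with adjusted p of 0.0734, 0.0817 and 0.151. Without AKI 1, Bax (0.0627) and Mdm2 (0.0898) did not pass, nor did Mdm2 without AKI 2 (0.081), and 3 of 20 genes passed without AKI 1. Bbc3, Gadd45b and Gadd45g, the other genes of this list with high levels, did not pass (adjusted p = 0.742, 0.747 and 0.638).

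**Figure D3:**
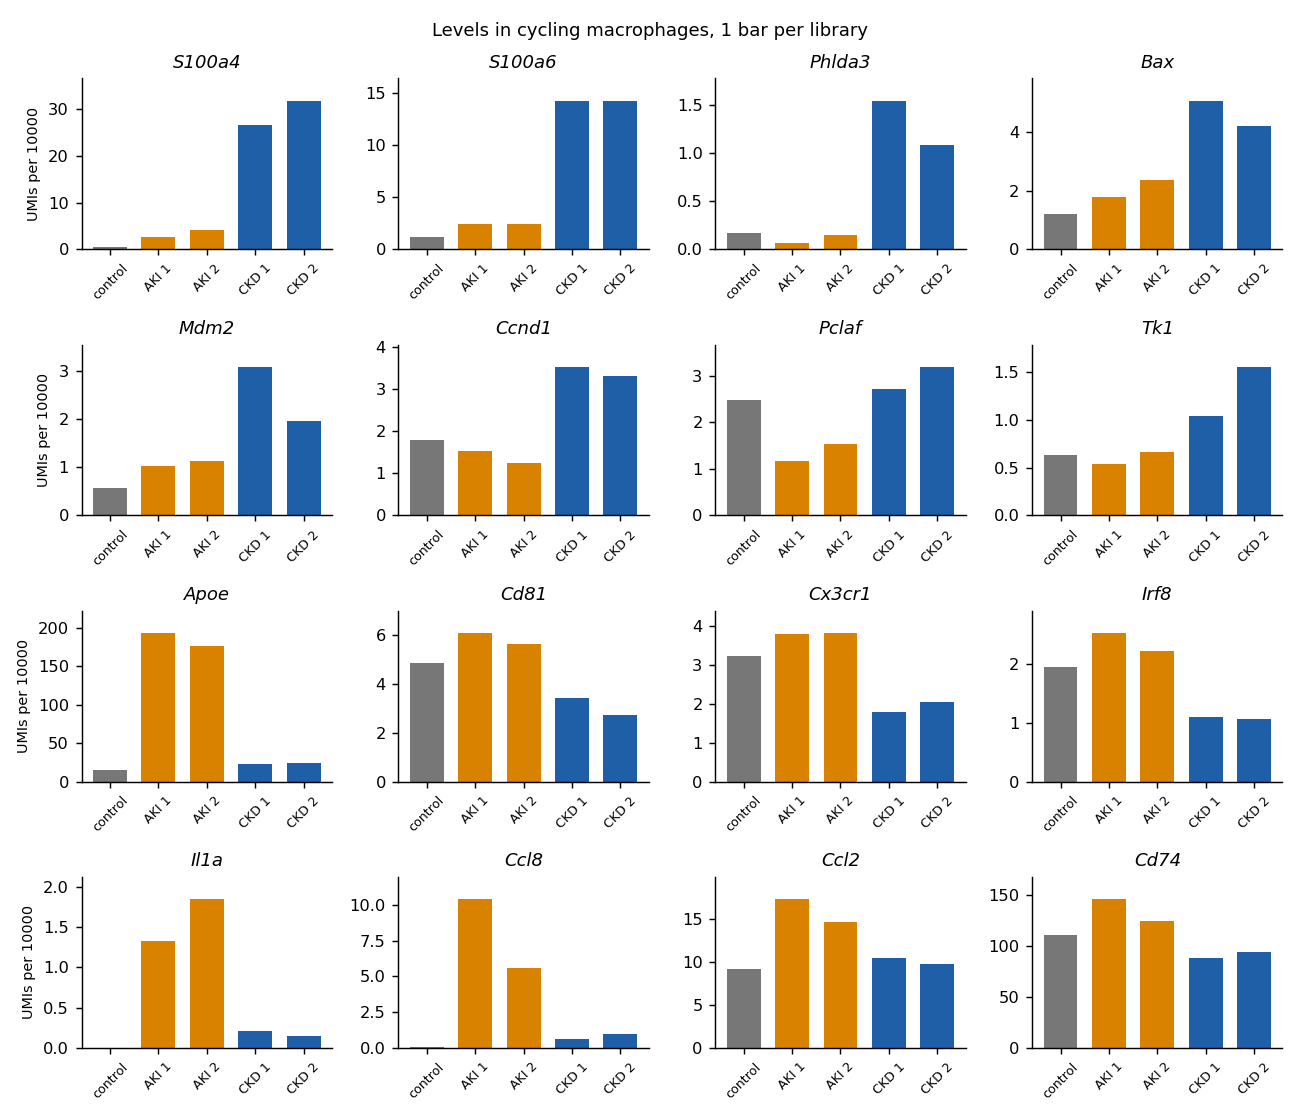
Level of 16 genes in the cycling macrophages of each library (UMIs per 10000), 1 bar per library in the colour of its phase. S100a4, S100a6, Phlda3, Bax, Mdm2, Ccnd1, Pclaf and Tk1 are higher in both CKD libraries than in both AKI libraries, and Apoe, Cd81, Cx3cr1, Irf8, Il1a, Ccl8, Ccl2 and Cd74 are lower.

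Genes of resident-like macrophages were lower in CKD members, with 8 of 13 lower, 0 higher and a median log2 change of -1.04. Apoe, which carries lipid out of the cell, was at 193 and 176 per 10000 in AKI 1 and AKI 2 and at 22.6 and 24.6 in CKD 1 and CKD 2. It fell by 3.07 (SE 0.14, adjusted p = 1.58e-05). Control members held 15.3 per 10000, near the CKD value, and T lymphocytes of the 5 libraries, which should lack the gene, 0.468 to 3.35. Cx3cr1, the fractalkine receptor, fell by 1.09 (SE 0.14, adjusted p = 0.0031), from 3.79 and 3.81 to 1.79 and 2.04. Cd81, a tetraspanin, fell by 1.04 (SE 0.15, adjusted p = 0.00513). Apoe, Cd81, Cx3cr1 and Tmem119 passed in every alternative fit, while Cd74, also an MHC class II gene, was lost without AKI 1 (0.178) and without AKI 2 (0.0627).

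The genes used to call macrophages were lower as well. C1qa was at 41.1 and 42.9 per 10000 in AKI members and at 22.1 and 21.7 in CKD members, Csf1r at 5.46, 4.60, 1.98 and 2.53, and Lyz2 at 104, 108, 37.8 and 40.5. In non-cycling cells C1qa was at 42.7, 44.6, 29.7 and 30.1. Limits on these genes chose the members, so no test is given.

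Growth and identity factors of macrophages fell in part, with 5 of 15 lower and 0 higher. Irf8, a factor of the monocyte lineage, was at 2.53 and 2.22 per 10000 in AKI and at 1.10 and 1.07 in CKD, and fell by 1.23 (SE 0.15, adjusted p = 0.00252). Igf1, a growth factor, Bhlhe41, a factor of tissue macrophages, and Il4ra, the IL-4 receptor, were also among those that fell. Spi1, which encodes the lineage factor PU.1, and Csf2ra, a GM-CSF receptor chain, did not pass (adjusted p = 0.394 and 0.0592).

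Among 11 monocyte and infiltrating macrophage genes 3 rose and 1 fell. S100a4, a calcium-binding protein of motile cells, was at 2.59 and 4.03 per 10000 in AKI 1 and AKI 2 and at 26.6 and 31.8 in CKD 1 and CKD 2, and rose by 3.04 (SE 0.20, adjusted p = 0.000111). S100a6, of the same family, was at 2.43, 2.45, 14.2 and 14.3 and rose by 2.44 (SE 0.13, adjusted p = 3.00e-05). Both passed in each alternative fit. T lymphocytes of the AKI and CKD libraries held 4.11 to 7.87 per 10000 of S100a4 and 6.77 to 8.27 of S100a6, below the CKD members and above the AKI members. T lymphocytes express both genes themselves, so these values are no measure of free RNA. Chil3, a chitinase-like protein, had 11 UMIs in AKI and 122 in CKD members, and its adjusted p of 0.0471 was 0.161 without AKI 1 and 0.0892 without AKI 2. Fn1, which encodes fibronectin and was named after its values were seen, fell from 2.41 and 3.50 to 0.526 and 0.211 per 10000, by 3.12 (SE 0.34, adjusted p = 0.00134). The monocyte markers Ly6c2, Hp, Vcan and Ifitm6 had too few UMIs to be tested.

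Lipid-associated macrophage genes moved both ways, 8 of 16 lower and 2 higher. Apoc2, an activator of lipoprotein lipase, was at 1.26 and 1.29 per 10000 in AKI and at 0.0709 and 0.0460 in CKD, and fell by 4.55 (SE 0.23, adjusted p = 3.00e-05). Cathepsin B (Ctsb) fell by 0.98 (SE 0.13, adjusted p = 0.00295), cathepsin D (Ctsd) by 1.68 (SE 0.29, adjusted p = 0.0097) and the lysosomal tetraspanin Cd63 by 1.13 (SE 0.14, adjusted p = 0.00295). Ctsd did not pass without AKI 2 (0.0604). Spp1, which encodes osteopontin, was at 12.5, 18.8, 9.88 and 2.76 per 10000 and did not pass (adjusted p = 0.105). T lymphocytes held 20.8, 16.8, 24.6 and 4.56 per 10000 of Spp1 in the same libraries, so its level in the members was above that of T lymphocytes in AKI 2 alone. The genes that rose were Fabp4, a fatty acid binding protein (adjusted p = 0.0242), and Lpl, lipoprotein lipase (adjusted p = 0.00463). Lpl passed in each alternative fit, whereas Fabp4 was lost with doublets removed (0.345), without AKI 1 (0.100) and without AKI 2 (0.156). The list had 1 rise and 5 falls without AKI 1 and 1 rise and 4 falls without AKI 2.

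Osteoclast genes were higher in CKD members, with 5 of 13 rising and 0 falling, although cells with 10 or more Ctsk UMIs had been left out. Acp5, the tartrate-resistant acid phosphatase, was at 1.07 and 1.45 per 10000 in AKI and at 2.92 and 2.77 in CKD, and rose by 1.07 (SE 0.16, adjusted p = 0.00552). Jdp2, a transcription factor of osteoclast formation, was at 0.766, 0.645, 1.81 and 2.31 and rose by 1.46 (SE 0.18, adjusted p = 0.00293). Nfatc1, their master regulator, rose by 0.96 (SE 0.19, adjusted p = 0.0201), and the remaining rises were Mmp9 and Atp6v0d2. Acp5 was lost without AKI 1 (0.0520) and without members holding a T cell receptor UMI (0.216), and 2 of the 13 passed without the latter cells. Nfatc1 was lost without AKI 1 (0.0870), without AKI 2 (0.0851) and with doublets removed (0.172). Tnfrsf11a, the receptor RANK, and Tcirg1, a proton pump subunit, did not pass (adjusted p = 0.212 and 0.513). T lymphocytes of AKI 1, AKI 2, CKD 1 and CKD 2 held 0.695, 0.874, 1.66 and 0.884 per 10000 of Acp5, below the members of each library. Of Ctsk they held 0.00935, 0.00883, 0.722 and 0.146, and of Jdp2 0.0786, 0.0658, 0.160 and 0.0941. The part of RNA from other cells in the rises of this list was not tested.

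Inflammatory genes formed the largest group of falls, 14 of 23 lower, 0 higher and a median log2 change of -0.98. Il1a was at 1.33 and 1.85 per 10000 in AKI and at 0.213 and 0.146 in CKD, and fell by 3.26 (SE 0.23, adjusted p = 0.000173). Ccl8 fell by 3.43 (SE 0.32, adjusted p = 0.000685). Ccl2, the main monocyte chemokine, was at 17.4, 14.7, 10.5 and 9.84 and fell by 0.76 (SE 0.14, adjusted p = 0.0136). Ccl4, a chemokine for T cells and monocytes, was at 114, 81.8, 64.5 and 40.7 and fell by 1.00 (SE 0.23, adjusted p = 0.0327). Without AKI 1 the count was 5 of 23 and without AKI 2 it was 8, with Ccl2 (0.134) and Ccl4 (0.235) lost without AKI 1 and Ccl4 without AKI 2 (0.0505). Without members holding a T cell receptor UMI 7 passed. Nfkbia, the NF-kB inhibitor, and Cxcl2, a neutrophil chemokine, did not pass (adjusted p = 0.212 and 0.0527).

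Immediate-early genes, which digestion of tissue also induces, fell in 8 of 16 cases. Atf3, a stress-induced factor, was at 22.3, 17.8, 11.2 and 8.66 per 10000 and fell by 1.12 (SE 0.17, adjusted p = 0.00606). Jun, a subunit of AP-1, was at 20.8, 21.7, 11.9 and 15.6 and fell by 0.73 (SE 0.15, adjusted p = 0.0223), but was lost without AKI 1 (0.123) and without AKI 2 (0.122). This list moved with the inflammatory genes, and its part in their fall was not tested.

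MHC class II genes fell in 4 of 11 cases. Cd74, the invariant chain, was at 146, 125, 88.4 and 93.7 per 10000 and fell by 0.67 (SE 0.13, adjusted p = 0.0184). Ctss, which trims that chain, was at 22.6, 21.0, 10.1 and 9.53 and fell by 1.25 (SE 0.13, adjusted p = 0.000986). H2-Aa and H2-Ab1 fell by 0.60 each (adjusted p = 0.0415 and 0.0271). Without AKI 1 or without AKI 2 only Ctss passed, with 0.301 and 0.101 for H2-Aa, 0.247 and 0.0812 for H2-Ab1, and 0.178 and 0.0627 for Cd74. Of 19 interferon-stimulated genes 1 passed, Bst2, a restriction factor that fell by 0.59 (adjusted p = 0.0415, and 0.215, 0.160 and 0.109 without AKI 1, AKI 2 and CKD 2).

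Few genes of the metabolic lists passed. Of 29 nuclear respiratory chain genes 1 rose, Atp5g1, a subunit of ATP synthase named after its values were seen (adjusted p = 0.0448, and 0.300, 0.138 and 0.0572 without AKI 1, AKI 2 and CKD 1). Cox4i1, a subunit of cytochrome oxidase, was at 9.75, 10.7, 12.5 and 11.5 per 10000 (adjusted p = 0.619). Both CKD libraries lay above both AKI libraries for 27 of the 29 genes, and below them for 1. Over all genes tested these shares were 32.5% and 20.2%. The median log2 change of the 29 was 0.25 in members and 0.41 in non-cycling macrophages, against -0.01 over all genes in members. None of 15 glycolytic genes passed. Gapdh was at 12.6, 16.1, 14.2 and 15.3 (adjusted p = 0.869), and Ldha, lactate dehydrogenase A, at 2.57, 3.00, 3.46 and 3.44 (adjusted p = 0.427). At an unadjusted p under 0.05 the whole comparison held 1997 genes.

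Beyond the lists, the largest rises were of genes with few UMIs. Sbsn, an epidermal protein, had 8 UMIs in AKI and 164 in CKD members and rose by 4.13 (SE 0.41, adjusted p = 0.000846). Akr1b8, an aldo-keto reductase, had 8 and 83 UMIs and rose by 3.20 (SE 0.45, adjusted p = 0.00396). Slc9b2, a sodium and proton exchanger, had 0 UMIs in both AKI libraries and 56 in CKD, at least 17.8-fold higher against a floor of 3 UMIs over the AKI members. Vegfc, a lymphatic growth factor, had 0 and 31 UMIs, at least 9.84-fold higher. Its adjusted p of 0.0135 was 0.0766 without AKI 1 and 0.112 without AKI 2. Micall2, with 1 UMI in AKI and 34 in CKD, had a ratio of 32.4 (95% counting interval 5.43 to 1316). Pcdh7, a protocadherin, had 2 and 48 UMIs (ratio 22.9, 5.99 to 194), and Dmkn, an epidermal protein, 3 and 79 (ratio 25.1, 8.28 to 124). Mnd1, a meiotic recombination gene, had 6 and 69 UMIs. With doublets removed, Micall2 and Dmkn had too few UMIs to be tested. Without AKI 2 the adjusted p was 0.163 for Micall2, 0.0808 for Pcdh7, 0.0881 for Dmkn and 0.0633 for Mnd1. Without AKI 1 it was 0.0573 for Micall2 and 0.109 for Mnd1, and without CKD 2 it was 0.108 for Mnd1.

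The largest falls included immune genes. H2-M2, an MHC class I-like gene, had 153 UMIs in AKI and 7 in CKD members and fell by 4.68 (SE 0.55, adjusted p = 0.00203). Syngr1, a vesicle protein, had 237 and 19 UMIs and fell by 3.80 (SE 0.40, adjusted p = 0.00118). Pla2g2d, a secreted phospholipase, had 33 UMIs in AKI and 0 in both CKD libraries, at least 11.5-fold lower against the 3-UMI floor, and its adjusted p of 0.0129 was 0.0533 without AKI 1. Fam189a2 had 31 UMIs and 1 UMI (ratio 32.5, counting interval 5.42 to 1326). F13a1, a clotting factor subunit of monocytes, had 76 and 6, and Meis3, a homeobox gene, 50 and 4. Without AKI 1 the adjusted p was 0.104 for Fam189a2, 0.134 for F13a1 and 0.0606 for Meis3, and it was 0.0843 for Meis3 without AKI 2.

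The same comparison was made in the non-cycling macrophages of the same libraries, where 15 of 11325 genes (0.132%) were called, 3 higher (0.0265%) and 12 lower (0.106%) in CKD. Of these 15 genes, 12 were also called in cycling macrophages, all 12 with the same sign. Of 595 genes called in cycling macrophages that had a value in non-cycling ones, 563 changed with the same sign there. Both classes share their libraries, so their changes are not independent. A test of the difference of the changes, with the library as a block, called 6 of 10836 genes (0.0554%), 1 with the higher change in cycling cells (0.00923%) and 5 with the lower (0.0461%). At an unadjusted p under 0.05 there were 955.

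**Figure D4:**
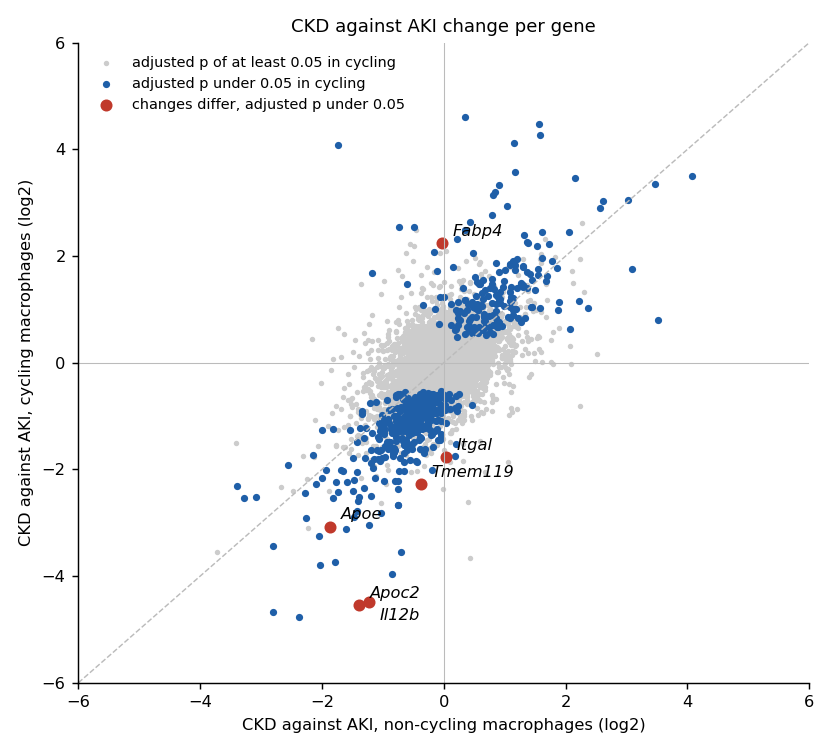
Log2 change from AKI to CKD of 9444 genes in non-cycling (horizontal) and cycling (vertical) macrophages, with 3 further genes outside the axes; blue marks genes with an adjusted p under 0.05 in cycling cells and red the 6 genes whose changes differed. Il12b, Apoc2, Tmem119, Itgal and Apoe lie below the dashed line of equal change and Fabp4 above it.

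Apolipoprotein genes fell further in the cycling class. Apoc2 was at 0.705, 0.831, 0.305 and 0.290 per 10000 in non-cycling cells, so its fall of 4.55 in cycling cells stood against 1.40 (SE 0.15). The difference of the changes was -3.14 (SE 0.28, adjusted p = 0.00595). Apoe was at 253, 263, 65.2 and 78.2 in non-cycling cells and fell by 1.87 (SE 0.22) there, a difference of -1.18 (SE 0.16, adjusted p = 0.0457). Apoc2 lost its call only without CKD 2 (0.0863), and Apoe lost it without AKI 1, AKI 2 or CKD 2 and with 4 UMIs of Mki67 and Top2a required.

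The other 4 genes were held at lower counts. Tmem119, a marker of resident microglia and macrophages, was at 0.784, 0.952, 0.184 and 0.199 per 10000 in cycling and at 0.400, 0.441, 0.401 and 0.262 in non-cycling cells, a difference of -1.87 (SE 0.25, adjusted p = 0.0457). Itgal, the LFA-1 integrin chain, named after its values were seen, was at 0.317, 0.494, 0.117 and 0.142 and at 0.272, 0.412, 0.345 and 0.371, a difference of -1.77 (SE 0.24, adjusted p = 0.0457). Il12b, the p40 chain of IL-12 and IL-23, was at 0.479, 0.926, 0.00417 and 0.0613 and at 0.198, 0.342, 0.0808 and 0.156, a difference of -3.32 (SE 0.45, adjusted p = 0.0457). Fabp4 was at 0.0658, 0.0645, 0.488 and 0.176 in cycling and at 0.859, 0.604, 1.10 and 0.382 in non-cycling cells, a difference of 2.23 (SE 0.26, adjusted p = 0.0398). T lymphocytes held 1.28, 0.699, 0.758 and 0.427 per 10000 of Fabp4, above the cycling cells in each library and below the non-cycling cells in CKD 1 alone. Without CKD 2 none of the 6 was called, and without AKI 2 only Apoc2 was. Without CKD 1 the calls of Tmem119 (0.0766), Itgal (0.0766) and Fabp4 (0.0552) were lost. Without cells holding a T cell receptor UMI the adjusted p was 0.683 for Il12b, 0.372 for Tmem119, 0.0899 for Itgal and 0.328 for Fabp4. With doublets removed Fabp4 (0.367) and Il12b (0.0726) were lost, and Apoc2, Apoe, Tmem119 and Itgal passed. Over the alternatives the difference of Il12b ran from -6.68 to -0.27.

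The 14 control members give values with no replicate. Their floor of 3 UMIs is 0.173 per 10000, against 0.00968 to 0.0180 in the other libraries. Control members held 24.2 per 10000 of C1qa, 8.01 of Lyz2, 0.519 of S100a4 (9 UMIs) and 1.79 of Ccnd1 (31 UMIs). Il1a, Il12b, Apoc2, Fabp4 and Chil3 had 0 UMIs there, which allows up to 0.173 per 10000 each. Mki67 and Top2a UMIs per 10000 were higher than in any other library, with 6 of the 14 cells carrying 10 or more.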

How the data were processed

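For each library the authors deposited raw UMI counts of genes by barcodes from Cell Ranger, with no normalization. Their processing notes name version 7.2.0, while version 5.0.0 stands in the AKI and CKD matrices and mm10 in the control gene list. CellBender and the doublet removal described in the study were not repeated here, and the counts were used as deposited. Genes were joined across libraries by Ensembl identifier and chosen for the rule by symbol.

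Cells were chosen by the rule given above. The members, gene lists, markers and tests were chosen with earlier results of these data known. UMIs were summed per library and class. CKD was compared with AKI over 2 and 2 libraries by the quasi-likelihood test of edgeR 4.0.16 (R 4.3.3; TMM, filterByExpr, Benjamini-Hochberg adjustment over all genes tested, threshold 0.05), and the difference of the changes with library, class and class by phase as terms. The control, with 1 library, entered no test. DESeq2 1.42.0, other size factors, no filter, stricter cell limits, doublet removal and left-out libraries were alternatives. The doublet score was the share of simulated doublets among 50 neighbours in 30 components of 1500 variable genes, removing 0.8% per 1000 cells. Levels are UMIs per 10000 of a class. Ratios used a pseudocount of 0.5 UMIs. The fits were tested on simulated data first.

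Named genes were the 10 largest rises and falls that passed with at least 30 UMIs and no overlap of libraries, the 5 highest of each list, list members whose changes differed, the 3 largest differences of each sign, the 5 highest and lowest ratios of cycling to non-cycling cells, and the genes of the rule. Gene models without a name were left out. Some members of the lists are counted but not reported here by name. Python 3.11.15, numpy, scipy, pandas and matplotlib were used for the rest.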

Additional observations from a re-analysis of the deposited data

Results flagged for a closer look

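The change from AKI to CKD differed between cycling and non-cycling macrophages for 6 genes, by the test of the difference itself with an adjusted p under 0.05. The difference, cycling minus non-cycling on the log2 scale, was -3.32 for Il12b, -3.14 for Apoc2, -1.87 for Tmem119, -1.77 for Itgal, -1.18 for Apoe and 2.23 for Fabp4. Leaving out CKD 2 removed all 6 calls. Cycling cells held more barcodes marked as doublets. With these removed, Apoc2 (adjusted p = 0.00886), Tmem119 (0.0255), Apoe (0.0302) and Itgal (0.0331) passed, and Il12b (0.0726) and Fabp4 (0.367) did not. Without cells holding a T cell receptor UMI, Apoc2 (0.0196) and Apoe (0.0301) alone passed. Cycling cells were also deeper, and the part of depth in these differences was not tested.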

How the results depend on the processing

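Depth and cell choice limit these results more than the scaling does. For CKD against AKI in cycling macrophages (605 genes), the count was 1107 with no low-count filter, 317 without members holding a T cell receptor UMI, 261 without these and marked doublets (chosen after seeing the data), 390 with DESeq2, and 246 to 1050 with 1 library left out, where a lone library is assumed to vary like the others. For the difference of the changes (6 genes), it was 260 with no filter, 12 with doublets removed, 2 without T cell receptor UMIs, 17 without both, 19 with at least 4 UMIs of Mki67 and Top2a, 27 without shared barcodes (chosen after seeing the data), and 0 to 45 with 1 library left out. The share difference (12.5 points) was 7.61 after thinning to 2000 UMIs, 9.47 without doublets and T cell receptor UMIs, and 9.74 to 15.2 with 1 library left out. The G2/M difference (4.86 points) was 0.295 with doublets removed, 1.55 without T cell receptor UMIs, -1.20 with at least 4 UMIs, 7.79 with at least 20 UMIs of C1q and Lyz2, -2.14 without doublets and T cell receptor UMIs, 8.33 after thinning, and 2.86 to 6.86 with 1 library left out. The cause of these shifts was not tested.

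No named gene with a call turned its direction. The changes of 11 named genes without a call did, none of them called after turning. With 1 library left out the log2 change ran from -0.16 to 0.53 for Bbc3, -0.020 to 0.28 for Btg1, -0.19 to 0.10 for Gapdh, -0.058 to 0.18 for Pcna, -0.034 to 0.25 for Gadd45b and -0.24 to 0.13 for Lig1. Without T cell receptor UMIs it was -0.014 for Cenpa, -0.0058 for Cks2 and 0.071 for Gadd45g, and with at least 4 UMIs -0.0091 for Hmgb2 and -0.056 for Pcna. It was 0.00016 for Lig1 with doublets removed and 0.036 without shared barcodes. Without doublets and T cell receptor UMIs it was -0.11 for Cenpa, -0.014 for Cks2, 0.011 for Gadd45g, 0.012 for Lig1 and -0.12 for Ube2c. Among the other alternative values 1336 kept direction and side of the threshold, 126 lost a call and 70 gained one, and for the difference of the changes 46 stayed and 26 lost a call. Replicate numbers only share a number between phases, and the correlation of the deviations of AKI 1 and CKD 1 across genes was 0.193. With the replicate block the count was 745, of which 600 genes were called without it. The model for the difference of the changes has the library as a block.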
